A study of Bos taurus with 2 samples.

Results

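The casein genes are the 4 genes CSN1S1, CSN1S2, CSN2 and CSN3, which were taken by symbol from the deposited tables of the cow mammary gland, where they are 4 of 27270 genes. RNA of single mammary cells from Holstein dairy cows was sequenced with the V3 version of the 10x Genomics 3' kit, in 1 library of an adult gland whose title marks it as lactating and 1 library of a newborn gland. The adult library had 15897 cell barcodes and the newborn library 13772. The labels name no mutation, treatment, age in days or number of animals for either group, and both tissues were freed of fat, digested with enzymes and strained in the same way, so the barcodes stand for the cells that passed these steps. With 1 library per stage there is no replicate, so stages are described and not tested, and intervals given with values are 95% intervals that cover counting error only.

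Caseins are the main proteins of cow milk and are carried in it as micelles, large particles that also hold calcium phosphate. CSN1S1 and CSN1S2 encode alpha-S1- and alpha-S2-casein, CSN2 encodes beta-casein, and these 3 proteins bind calcium through phosphorylated serines. CSN3 encodes kappa-casein, a glycosylated protein that coats the micelle and keeps it in suspension. The genes are transcribed in the milk-secreting epithelial cells of the alveoli, under prolactin acting through STAT5 with ELF5 and glucocorticoid receptor. The whey proteins are made by the same cells, among them alpha-lactalbumin (LALBA), beta-lactoglobulin (PAEP) and GLYCAM1.

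The adult library summed to 85388618 UMIs (unique molecular identifiers, each counted as 1 captured transcript) with a median of 2723 per barcode, and the newborn library to 65597671 UMIs with a median of 4581. The deposited barcodes numbered 29669 in all, against 24472 cells that the series' design text gives, and the filter behind that number was not used here. The libraries shared 57 barcode sequences. Epithelial cells were nearly missing from the newborn library: the luminal keratin genes KRT8, KRT18 and KRT19 had 0, 7 and 2 UMIs there, against 29196, 13864 and 122638 in the adult library. The 17 luminal marker genes summed to 5956 CPM (UMIs scaled to the library's total) in the adult and 33.4 CPM in the newborn. The 10 basal marker genes summed to 208 and 15.7 CPM. Of these, KRT14, KRT17 and TP63 were at 0 in the newborn, while OXTR (4.41 against 0.246 CPM) and CNN1 (6.63 against 5.18) were higher there. The 16 marker genes of secretory cells summed to 1473 CPM in the adult and 1275 in the newborn, so that sum hardly separates the libraries. How much of a difference in casein between the stages goes with the number of epithelial cells captured and how much with RNA per cell cannot be told apart here.

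In the adult gland, casein transcripts were among the most abundant of all. CSN1S1 had 5220554 UMIs, which was the highest count of any gene and 6.11% of the library. CSN2 ranked 2 with 4449691 UMIs and 5.21%. CSN3 ranked 4 with 1581677 UMIs and 1.85%, behind the whey gene PAEP, which had 3341624 UMIs. CSN1S2 was the least abundant of the 4, at rank 11 with 744229 UMIs and 0.872%. The kit counts 3' ends, so these values need no division by transcript length, though how evenly the 4 transcripts were captured was not tested. Together they made up 14.05% of all adult UMIs (14.04 to 14.06). The order CSN1S1, CSN2, CSN3, CSN1S2 is far outside counting error at every step.

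The newborn gland yielded 1 casein UMI in all. It was a CSN2 UMI, in a barcode of 6296 UMIs that carried endothelial markers and whose sequence the adult library did not share. CSN1S1, CSN1S2 and CSN3 had 0 UMIs, for which the counting interval reaches up to 0.0562 CPM each. Set against a fixed floor of 3 counts of the library (0.0457 CPM), which lies below that limit, the adult CSN1S1 level was 1336850-fold higher. The adult to newborn ratio of CSN2 was 3418360 with a counting interval from 613529 to 135019000. The 4 caseins all passed a 4-fold excess of adult over newborn CPM, as did 11.1% of the 2706 measured genes (those that reached 50 CPM and 20 UMIs where they were higher). Among the whey genes the newborn library held 1 UMI of LALBA, 0 of PAEP and 20 of GLYCAM1, the latter in 18 barcodes. BTN1A1, which encodes the butyrophilin of the milk fat globule membrane, was also at 0 there, beside 7005 UMIs in the adult.

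Casein UMIs were found in 15894 of the 15897 adult barcodes, but in very unequal amounts. The median barcode held 48 of them, the middle 50% of barcodes lay between 39 and 61, and the highest barcode held 160036 of its 274917 UMIs. The 159 barcodes with the most casein (the top 1%) carried 70.3% of all casein UMIs, and the top 10% carried 94.4%. Barcodes thus fell into a large group with few casein UMIs and a small group with many: 8020 barcodes had at least 40 and fewer than 63, 150 had at least 250 and fewer than 1000, and 260 had at least 10000 and fewer than 100000. Measured as a share of the barcode's UMIs, 13296 barcodes lay under 5% casein, 59 lay between 20% and 30%, and 158 between 50% and 60%. The 426 barcodes over 30% casein were 2.68% of the library and held 91.8% of its casein UMIs.

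**Figure D1:**
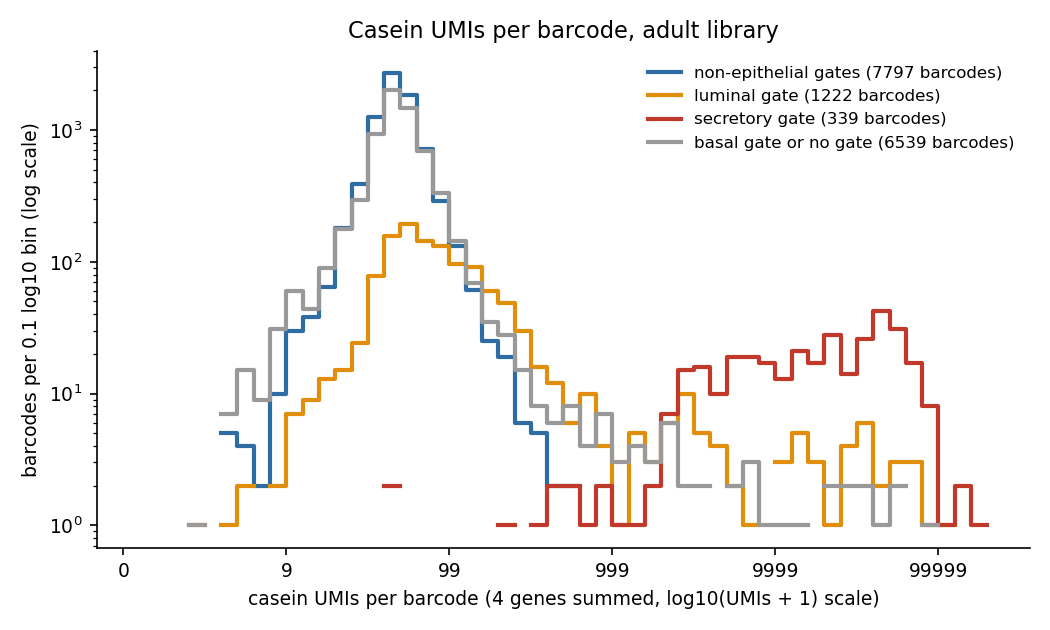
Number of adult barcodes (log scale) by their summed casein UMIs (log10(UMIs + 1) scale), with lines for barcodes of the non-epithelial, luminal and secretory gates and for those of the basal gate or of none. Nearly all non-epithelial barcodes lie in a peak around 46 UMIs, and 95% of the secretory barcodes lie above 2104.7 UMIs, up to 160036.

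To set these amounts against cell identity without using any milk protein gene, barcodes were sorted by marker genes of 14 cell types. Each barcode went to the list that it covered most fully, given 3 or more different markers (6 for the secretory list), and only if no list of another lineage reached more than 50% of its number of markers. The secretory list holds genes of milk fat and lactose supply such as BTN1A1, FASN, CIDEA and FABP3. The secretory gate took 339 adult barcodes with a median of 37313 UMIs, and the non-epithelial gates took 7797 with a median of 2805. A further 1222 barcodes entered the luminal gate, 17 the basal gate and 6522 none. Of the 426 barcodes over 30% casein, 324 were in the secretory gate, 60 in the luminal gate, 38 in none, 2 in the endothelial gate, 1 in the neutrophil gate and 1 in the basal gate.

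In the secretory gate, 56.2% of all UMIs were casein. CSN1S1 alone was 24.5% of the gate's UMIs, with a median of 8737 UMIs per barcode. CSN2 followed at 21.0% and a median of 6896, then CSN3 at 7.20% and 2423. CSN1S2 stood at 3.46% and 1195. Each of the 4 was detected in 100% of the 339 barcodes. Summed casein UMIs per barcode had a median of 20572, with the middle 50% of barcodes between 6565 and 42754. Between the 5th and the 95th percentile of the 339 barcodes, total UMIs varied 30.8-fold (4175 to 128702) and the casein share 2.23-fold (30.8% to 68.8%). The lowest share was 1.35% and the highest 77.0%.

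Casein level followed BTN1A1, a secretory marker, across the epithelial gates. The 1144 epithelial barcodes with no BTN1A1 UMI had a median of 70 casein UMIs, or 0.912% of the barcode. Those with 1 BTN1A1 UMI, 87 barcodes, had a median of 494 with quartiles of 106 and 2966, which spans both groups of barcodes. At 2 to 4 BTN1A1 UMIs the median was 5503, or 53.0%, and at 10 or more it was 41866, or 56.2%. The share thus reached its upper level at 2 to 4 UMIs of BTN1A1 and was about the same above it. Depth moves with these classes, from a median of 7046.5 total UMIs without BTN1A1 to 73518 at 10 or more, and its part was not tested.

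The luminal and basal gates gave casein shares that rested on few barcodes. The luminal gate as a whole was 8.40% casein, with a median of 74 casein UMIs per barcode and a maximum of 120856. Without the 10% of its barcodes with the most UMIs, the share was 3.19%. The basal gate was 24.9% casein over 17 barcodes, and 32079 of its 32792 casein UMIs came from 1 barcode of 84415 UMIs. The other 16 basal barcodes were 1.503% casein with a median of 48 UMIs, a level within the range of the non-epithelial gates.

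Cells of other lineages all carried casein UMIs, at nearly the same number per barcode whatever the cell type. The median was 46 in the T cell gate (2971 barcodes), 45 in the NK or cytotoxic gate (1161), 48 in the endothelial gate (2594), 48 in the fibroblast gate (220), 44.5 in the neutrophil gate (494), 37 in the mast cell gate (224) and 57 in the macrophage or monocyte gate (91). These 7 medians differed by 1.54-fold at most. As a share of the barcodes' UMIs the same gates differed 5.05-fold, from 0.976% in the endothelial gate to 4.93% in the neutrophil gate, whose barcodes had a median of only 855 UMIs. All 7797 non-epithelial barcodes held at least 3 casein UMIs, and the highest held 574. RNA set free by broken secretory cells and caught in the droplets of other cells, and casein RNA made by those cells, cannot be told apart in 1 barcode; the near-constant level is called the background below.

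The background depended little on how much RNA a barcode held. Over all non-epithelial gates, barcodes of 500 to 1000 UMIs had a median of 42 casein UMIs and those of 4000 to 8000 UMIs a median of 50 (each class leaves out its upper limit). At 20000 UMIs or more, where 119 of 123 barcodes were endothelial, the median was 97. The slope of log casein on log total UMIs was 0.20 over these 7797 barcodes, where a share that is the same at every depth would give 1. The casein share of these barcodes accordingly fell with depth, from 5.57% at 500 to 1000 UMIs to 0.34% at 20000 or more.

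**Figure D2:**
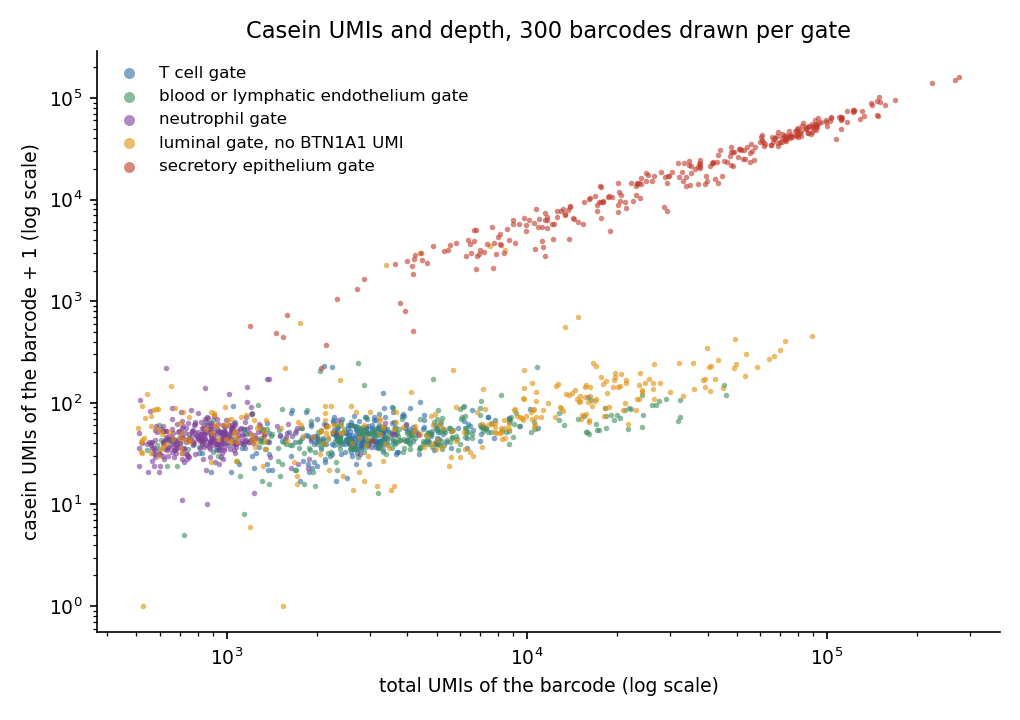
Casein UMIs plus 1 against total UMIs of each barcode (both axes log scale), for 300 barcodes drawn from each of 5 gates of the adult library. T cell, endothelial and neutrophil barcodes form a flat band around 46 casein UMIs, secretory barcodes lie on a steep band at about 56% of their UMIs, and luminal barcodes without BTN1A1 leave the flat band upward above about 8000 UMIs.

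Casein UMIs were detected in nearly every adult barcode whatever its lineage. When every barcode was thinned to 1000 UMIs, CSN1S1 was still found in 98.5% of the 6985 non-epithelial barcodes that were deep enough (812 were left out), and CSN2 in 97.8%. CSN3 was found in 81.5% of them and CSN1S2 in 58.7%. In the 339 secretory barcodes, thinned the same way, all 4 were found in 100%. The unthinned shares of non-epithelial barcodes with a UMI were 100.0% for CSN1S1 and for CSN2, 98.9% for CSN3 and 91.8% for CSN1S2. The amounts stood far apart: a secretory barcode thinned to 1000 UMIs held 536 casein UMIs on average and a non-epithelial one 17.5. Only 156 adult barcodes had at most 10 casein UMIs, with a median of 907.5 total UMIs, and 97 of them were in no gate.

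The 4 caseins stood in almost the same ratio in the background as in secretory cells. In the secretory gate, CSN1S1 was 43.6% of the casein UMIs (43.59 to 43.66), CSN2 37.4% (37.38 to 37.44), CSN3 12.8% (12.79 to 12.83) and CSN1S2 6.16% (6.14 to 6.17). Over the non-epithelial gates the shares were 44.9% (44.79 to 45.10), 36.5% (36.31 to 36.61), 12.6% (12.53 to 12.73) and 5.96% (5.89 to 6.04). The largest shift, 44.9% against 43.6% for CSN1S1, is beyond counting error and small. Across the 7 non-epithelial gates of at least 50 barcodes, CSN1S1 ranged from 44.5% to 46.0%, CSN2 from 35.7% to 37.1%, CSN3 from 11.9% to 12.9% and CSN1S2 from 5.61% to 6.26%.

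**Figure D3:**
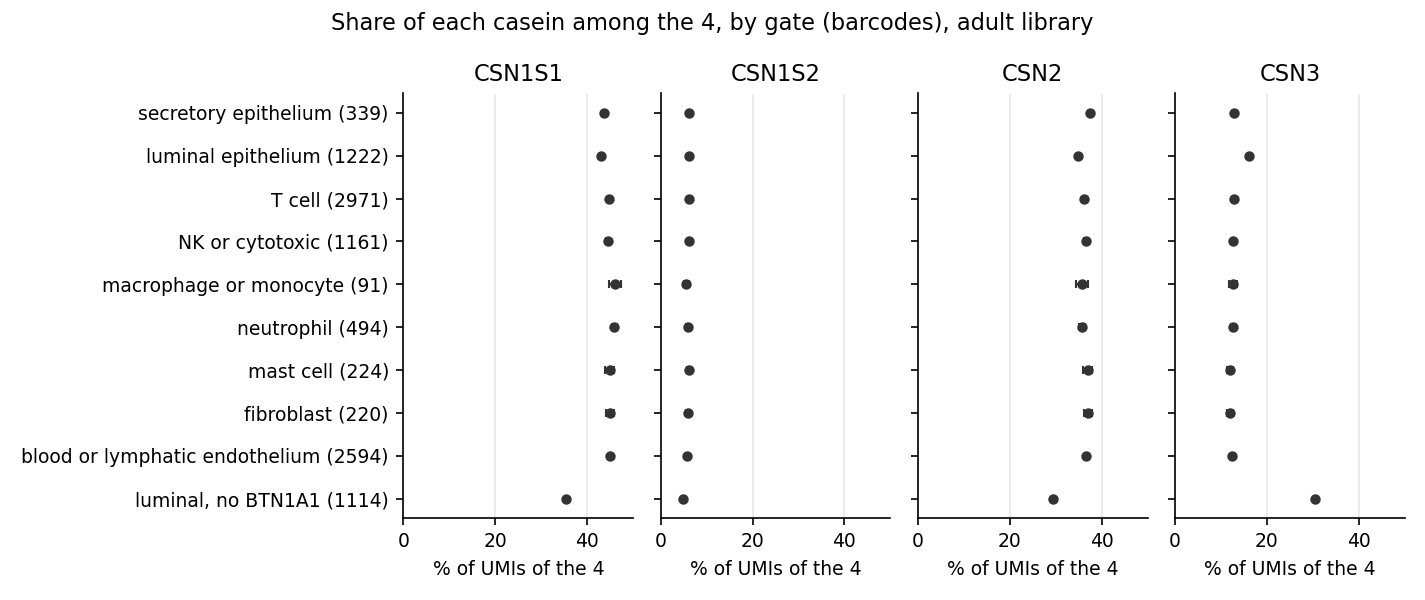
Share of each casein among the UMIs of the 4 (x axis, percent) in the gates of at least 50 adult barcodes (rows, barcode number in brackets), with exact binomial 95% intervals, which cover counting error only. The luminal barcodes without BTN1A1 stand apart with 30.4% CSN3, against 11.9% to 12.9% in the non-epithelial gates.

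The whey genes kept less closely to the casein ratio. Per 100 casein UMIs, PAEP stood at 27.4 in the secretory gate and 33.7 in the non-epithelial gates, LALBA at 1.46 and 2.22, and GLYCAM1 at 8.27 and 9.24. All 3 whey genes were thus higher relative to casein in the background. The gap was smaller in endothelial barcodes of at least 8000 UMIs, with PAEP at 28.5, LALBA at 1.64 and GLYCAM1 at 8.67. T cell barcodes of that depth had 29.4, 2.06 and 9.11. The make-up of the background also moved a little with depth: in the endothelial gate CSN1S1 was 47.2% of the 4 at 500 to 1000 UMIs and 42.9% at 20000 or more, while CSN2 was 34.6% and 40.1%.

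Single secretory barcodes differed widely in the make-up of their casein UMIs. Over the 328 secretory barcodes with at least 1000 casein UMIs, the CSN1S1 share of the 4 had a mean of 43.9% and an SD of 6.24 percentage points over barcodes, where drawing UMIs at 1 fixed ratio would give 0.504. Its lowest value was 25.0% and its highest 67.4%. The CSN2 share had an SD of 6.07 points and ran from 9.91% to 58.1%. For CSN3 the SD was 2.69 points, with a range from 6.48% to 31.0%, and for CSN1S2 it was 1.86 points, from 1.59% to 14.5%. The spread was 7.62 to 12.4 times that of sampling for the 4 genes. CSN1S1 outnumbered CSN2 in 260 of the 328 barcodes, with a median of 1.17 CSN1S1 UMIs per CSN2 UMI, a 5th percentile of 0.733 and a 95th of 2.02.

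CSN1S1 and CSN2 mainly traded places with each other. Their shares of the 4 had a Pearson r of -0.87 across the 328 barcodes, while CSN1S1 and CSN3 had -0.12 and CSN2 and CSN3 -0.29. Shares that add to 100% are pulled towards negative r, so these values are descriptions. In amount, all 4 went together: r of log10 UMIs lay between 0.94 and 0.97 for the 6 pairs of caseins and between 0.80 and 0.87 against the UMIs of all other genes. All these barcodes come from 1 library and share its depth range.

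**Figure D4:**
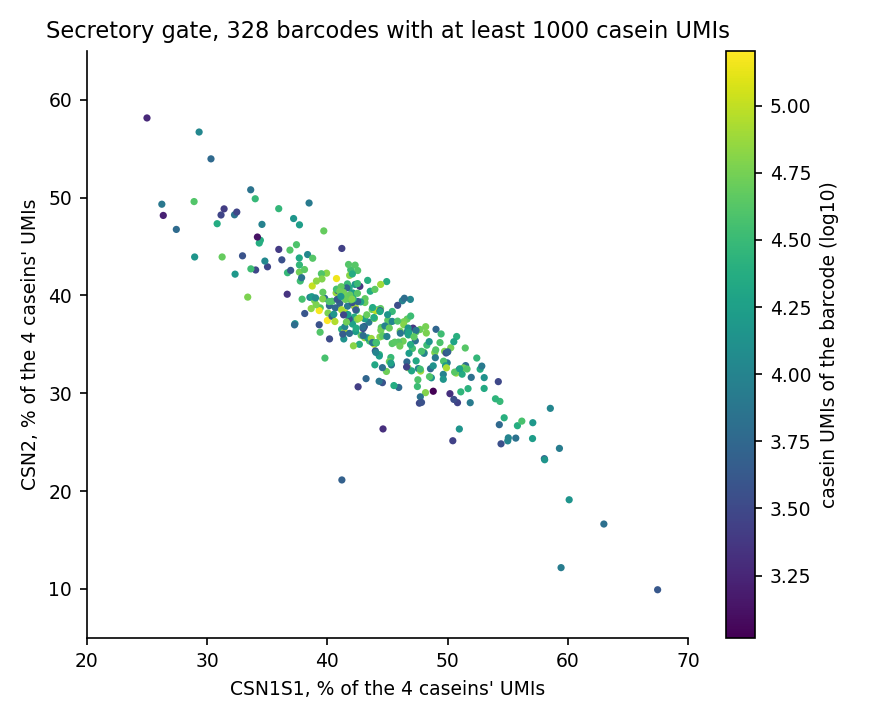
CSN2 share against CSN1S1 share of the casein UMIs (percent) in 328 secretory barcodes with at least 1000 casein UMIs, coloured by the log10 casein UMIs of the barcode. The points run along a falling line from 25.0% CSN1S1 to 67.4%. The barcodes at its ends held 1863 and 4095 casein UMIs, against a median of 21610.5 over the 328, so both ends were shallow barcodes.

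The ratio of CSN1S1 to CSN2 went with LALBA, the regulatory subunit of lactose synthase, a pattern that was looked for after the values had been seen. LALBA per 100 casein UMIs had a median of 1.00 over the 328 barcodes and varied 28.4-fold between the 5th and 95th percentiles, against 2.71-fold for PAEP and 6.02-fold for GLYCAM1. The 110 barcodes with the least LALBA per casein (0 to 0.698 per 100) had a median of 1.43 CSN1S1 UMIs per CSN2 UMI, with quartiles of 1.16 and 1.61. The 109 with the most (1.40 to 9.52 per 100) had a median of 1.09, with quartiles of 0.982 and 1.22, so that the quartile ranges overlap only at their edge. CSN1S2 was 5.22% of the 4 in the former and 6.32% in the latter, and CSN3 12.1% and 13.7%.

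Other genes differed between the same barcodes, and depth and casein share differed less. The median casein share was 53.7% with the least LALBA and 57.2% with the most, and median total UMIs were 39784.5 and 33174. Per 10000 UMIs of genes other than caseins and whey, LTF, which encodes the antimicrobial protein lactoferrin, had a median of 112 with the least LALBA and 27.2 with the most. FASN (fatty acid synthase) stood at 7.78 and 13.4, BTN1A1 at 11.0 and 15.3, and FABP3, a fatty acid binding protein, at 28.1 and 85.8. These are medians over barcodes of 1 library, and no test was made.

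CSN3 stood apart from the other 3 caseins in luminal barcodes without a BTN1A1 UMI, a result also found after the values had been seen. The 1114 luminal barcodes with no BTN1A1 UMI held 1.09% casein in all, and CSN3 was 30.4% of it (30.13 to 30.62). In 13 of them casein was over 30% of the UMIs, and the highest held 6062 casein UMIs. At 20000 or more total UMIs, the 196 luminal barcodes of this kind had medians of 43 CSN1S1, 5 CSN1S2 and 39 CSN2 UMIs. The 119 endothelial barcodes of that depth had 42, 6 and 40, so for these 3 genes the luminal medians were at the background. CSN3 had a median of 81.5 in the luminal barcodes and 11 in the endothelial ones.

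The excess of CSN3 was largest in deep luminal barcodes. Below 8000 total UMIs the median CSN3 count was 6 to 8 in the luminal set and 5 to 6 in the endothelial gate. It was 20 against 7 at 8000 to 12000 UMIs and 42 against 8 at 12000 to 20000. The CSN3 share of the 4 in the luminal set was 12.5% at 500 to 1000 UMIs, close to the background value, then 17.9% at 4000 to 8000, and reached 47.0% (46.50 to 47.47) at 20000 or more. In the endothelial gate these classes had 12.5%, 12.6% and 11.2%. These are shares of summed UMIs, in which barcodes with much casein weigh more. In the luminal set at 4000 to 8000 UMIs the mean CSN3 count was 22.7 beside a median of 8. Over all luminal barcodes of this kind with at least 8000 UMIs (529 barcodes, median 15546 UMIs), CSN3 was 39.5% of casein UMIs, against 11.7% in 437 endothelial barcodes of like depth (median 14640) and 12.8% in 88 T cell barcodes (median 9943).

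**Figure D5:**
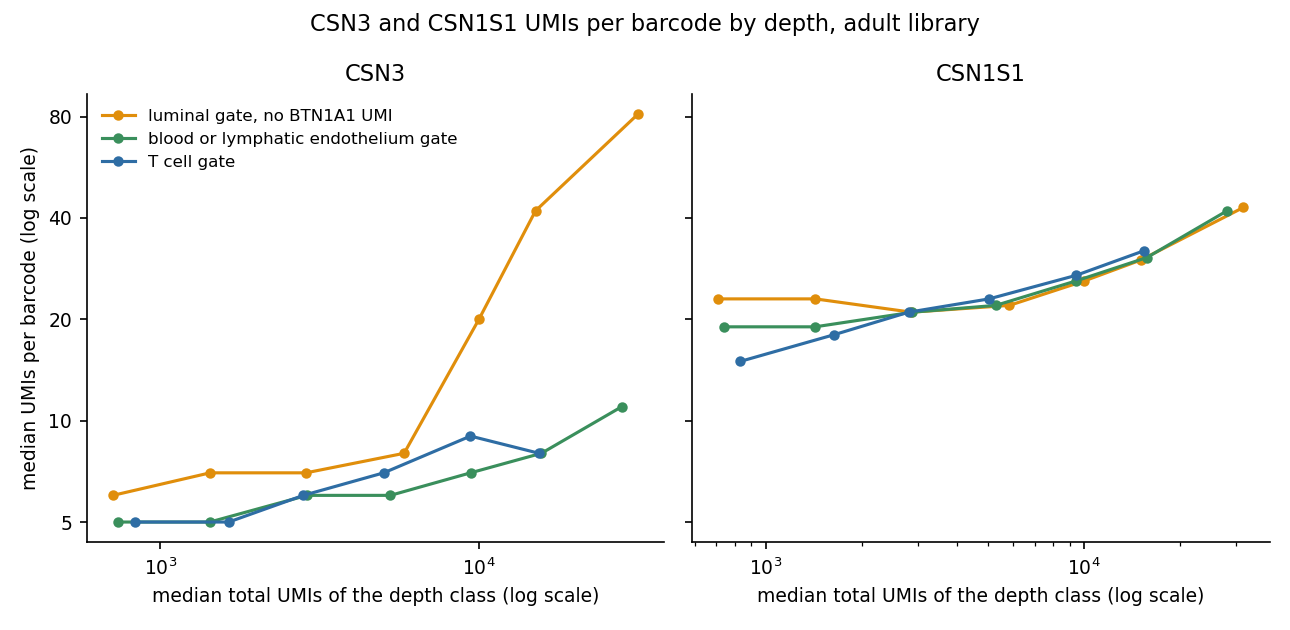
Median UMIs per barcode of CSN3 (left) and CSN1S1 (right) against the median total UMIs of each depth class (both axes log scale), for luminal barcodes without BTN1A1, endothelial and T cell barcodes of the adult library. The 3 lines lie together for CSN1S1, while the luminal line for CSN3 climbs to 81.5 UMIs and the endothelial line to 11.

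At equal depth the CSN3 difference remained. Thinned to 5000 UMIs, 640 luminal barcodes without BTN1A1 (474 were too shallow) had a median of 10 CSN3 UMIs with quartiles of 6 and 18, against 4 in 799 endothelial and 5 in 368 T cell barcodes. By median, CSN1S1 was lower in the luminal barcodes, at 10 against 14 and 18, and CSN2 had 9 against 12 and 15. The means did not show this order, at 19.3 against 15.6 and 19.0 for CSN1S1 and 15.0 against 13.3 and 16.3 for CSN2. For CSN3 the means were 16.6 against 4.32 and 5.69. Before thinning, the luminal barcodes were the deeper ones, with a median of 13383 total UMIs against 8542 and 6328.

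The luminal CSN3 count was higher in barcodes with ELF5, a transcription factor of the alveolar lineage. The 189 thinned luminal barcodes without an ELF5 UMI had a median of 5 CSN3 UMIs, those with 1 had 10, and the 379 with at least 2 had 15. Depth before thinning moved with ELF5, at medians of 9071, 15300 and 16313 UMIs, and its part in the result was not tested. Over the 640 barcodes and 2481 genes, the log counts closest to CSN3 were those of SPP1 (osteopontin, r = 0.61), LTF (0.61), CHI3L1 (0.54), the complement gene C3 (0.53) and ELF5 (0.52). CSN1S1 reached only 0.21 and CSN2 0.17, at ranks 71 and 108. These coefficients describe barcodes of 1 library at 1 depth, and those genes were named after their values had been seen.

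Across the 13 gates that held adult barcodes, the genes whose level was most like the summed caseins were the other milk proteins. Likeness was the Pearson r of log2(CPM + 10), computed for the 275 named genes with at least 100 CPM in the secretory gate. PAEP (r = 0.998), GLYCAM1 (0.993) and LALBA (0.987) came first. HSTN, which lies in the casein cluster, was next at 0.984, with 2509 CPM in the secretory gate and 92.1 CPM in the T cell gate. The other six of the 10 were SCGB1D, TFF3, FGFBP1, PIGR (the receptor that carries immunoglobulin A into milk), SLC39A8 and SLC27A6 (a fatty acid transporter), with r from 0.938 to 0.982. The gates share 1 library and its background, which enters every point. Each gate counted equally, though the dendritic cell, plasma cell and B cell gates held 8, 15 and 19 barcodes. Nearly all casein of the basal gate came from 1 barcode. The limit of 100 CPM was set on the gate where casein was highest, so genes low there could not be listed.

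All 4 caseins were at least 4-fold higher in the secretory than in the T cell gate, a size that 5.02% of the 2091 measured genes reached (those past the same limits of CPM and UMIs in the higher gate). Their ratios lay close together, at 36.6 for CSN1S1, 37.3 for CSN3, 38.2 for CSN1S2 and 38.8 for CSN2. The T cell caseins are the background described above, which had almost the make-up of secretory cells. The closeness of the ratios restates that, and their size depends on the background level. Milk protein RNA filled most of the secretory transcriptome, and the median log2 ratio of all measured genes was -2.54. Leaving out casein and whey UMIs raised every gene's log2 ratio by the same amount, for example that of GATA3 from -2.03 to 0.065. CPM rose mainly in the secretory gate, so more genes passed the limits, 2952 in all. Their median was 0.20, and 19.1% of them were at least 4-fold higher. The medians on the 2 scales thus cover different sets of genes. Ratios of other genes are given below on both scales and are to be read against these medians, and no test was made with 1 library.

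Of 20 genes known to act on casein transcription, 5 were measured on the first scale, with a median log2 ratio of -2.03. ELF5 was 26.0-fold higher in the secretory gate, at 721 against 27.7 CPM, and the epithelial factor EHF 16.0-fold. NR3C1 (glucocorticoid receptor) had a ratio of 0.154, the Y-box factor YBX1 0.181 and GATA3 0.245, all at least 4-fold lower on this scale, as were 66.5% of the 2091 measured genes, so that nothing about these 3 is read from it. Without milk protein UMIs, 8 were measured with a median of 3.67. None was 4-fold lower, beside 14.2% of all 2952 measured, and 4 were at least 4-fold higher, beside 19.1%. The higher ones were ELF5 (111-fold), the prolactin receptor PRLR (69.1), EHF (68.5) and NFIB (42.1), and GATA3 had a ratio of 1.05. PRLR, NFIB and NFIC were measured on this scale only, through their secretory level. Nothing is therefore read from the rise of the median, or from the count of higher genes beside 19.1%. STAT5A, which carries the prolactin signal, had 9.04 CPM in the secretory gate and 31.8 in the T cell gate. Without milk protein UMIs it had 39.5 and 32.6 CPM, and on both scales it was below the limit for being measured. Against luminal cells without BTN1A1, and without milk protein UMIs, ELF5 was 5.50-fold higher in the secretory gate. In that comparison EHF had a ratio of 0.889, NFIB 0.831 and PRLR 0.548, so none of them was higher in the secretory gate. PRLR is 1 of the 17 luminal marker genes by which barcodes entered the luminal gate, so its ratio there is partly set by the gating.

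Of 25 genes for the folding, phosphorylation, glycosylation and calcium supply of casein, 10 were measured on the first scale, with a median log2 ratio of -2.07. FAM20C, the Golgi kinase that phosphorylates casein, was the exception among them, 22.5-fold higher at 98.2 against 4.36 CPM. Lower by at least 4-fold, as 66.5% of all measured genes were, stood 5 of the 10: PDIA3 (0.117), NUCB2 (0.120), CALR (0.158), HSP90B1 (0.172) and GALNT1 (0.219), of which PDIA3, CALR and HSP90B1 serve protein folding in the endoplasmic reticulum. Without milk protein UMIs, 13 were measured with a median of 0.15. None was 4-fold lower, beside 14.2% of all 2952 measured, and 3 were at least 4-fold higher, beside 19.1%. The higher ones were FAM20C (96.2-fold), the Golgi calcium pump ATP2C2 (69.1) and the calcium channel ORAI1 (6.78). HSPA5 (1.17) and SEC61B (1.75) were not among them. ATP2C2, ORAI1 and PDIA4 were measured on this scale only, through their secretory level. Nothing is therefore read from the rise of the median, or from the count of higher genes beside 19.1%. Against luminal cells without BTN1A1, ATP2C2 was 29.4-fold higher in the secretory gate on this scale, with 245 UMIs against 28.

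Among 6 whey and other milk proteins, 5 were at least 4-fold higher on both scales, beside 5.02% and 19.1% of all measured genes. These were LPO, GLYCAM1, PAEP, LALBA and LTF, with ratios from 39.6 to 18.7 on the first scale. B2M, the light chain of class I histocompatibility molecules, had a ratio of 0.065 on the first scale and 0.278 without milk protein UMIs. LTF differed from the others against luminal cells without BTN1A1, where its ratio was 1.15 without milk protein UMIs. PAEP had 251 in that comparison and LALBA 239. For the caseins it was 273 for CSN1S1, 284 for CSN1S2 and 283 for CSN2 but 93.5 for CSN3, which goes with the luminal CSN3 level above.

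The RefSeq annotation of ARS-UCD2.0 places the 4 caseins on 1 chromosome in the order CSN1S1, CSN2, CSN1S2, CSN3, with 6 other genes between the first and the last. Of the 4 protein-coding genes in between, HSTN and ODAM had a row under these symbols. HSTN, the histatherin gene, had 54758 adult UMIs, 41640 of them in the secretory gate, and was found in 97.6% of its barcodes, with 0 UMIs in the newborn. Its level was 0.446 per 100 casein UMIs in the secretory gate and 0.636 in the non-epithelial gates. ODAM, an odontogenic protein gene between CSN1S2 and CSN3, had 83 adult UMIs and 7 newborn UMIs. Neighbouring genes of the cluster therefore differed widely in level.

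The newborn gates that both libraries filled held no casein UMI, except for 1 in the endothelial gate. The newborn fibroblast gate was the largest, with 10456 barcodes and 0 casein UMIs, against 11759 casein UMIs in 220 adult barcodes. The T cell gate held 11 newborn barcodes, the NK or cytotoxic gate 26, the neutrophil gate 21, the mast cell gate 231 and the macrophage or monocyte gate 5, all with 0. The endothelial gate of 74 newborn barcodes held the 1 CSN2 UMI. No newborn barcode entered the luminal or basal gate, and the 2 that entered the secretory gate had no casein UMI and, like the whole library, no BTN1A1. A comparison of epithelial cells between the stages was not possible.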

How the data were processed

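The authors deposited unnormalised UMI counts for each gene and barcode. Cell Ranger 3.1.0 is named in the submitters' processing notes, and the build is not given in the sources used here. All deposited barcodes were used. Gates took barcodes by 14 fixed marker lists without milk protein genes. The numbers of markers needed were set with the data in view, and the 4 members and the gene lists were chosen with earlier results of these data known. Sums have exact Poisson and shares exact (Clopper-Pearson) binomial intervals at 95%. Barcodes were thinned by drawing UMIs without replacement. Doublets were scored with Scrublet in scanpy 1.11.5 and kept in the main values; the alternative left out the 2022 adult and 1517 newborn barcodes with the highest scores, up to 0.8% per 1000 barcodes. Other genes named were the 10 most like the caseins and, of each list, those at least 4-fold apart between the secretory and T cell gates (at most 6) with 1 or 2 that were not. The CSN3 result in luminal barcodes, the LALBA grouping, PRLR, STAT5A and neighbouring genes were chosen after values were seen. The ratios and rankings were also computed on simulated counts of 27270 genes. For the secretory over the T cell gate, genes changed 8-fold came out at a median of 8.03. In the ranking, 10 of 10 genes planted like the caseins were found. How the milk protein RNA of the secretory gate and the shared background bear on the ratios and rankings was not tested. Python 3.11.15, numpy 2.4.6 and scipy 1.17.1 were used.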

Additional observations from a re-analysis of the deposited data

How the results depend on the processing

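With 1 library per stage, the alternatives differ from the main values by choice of barcodes, not by replicate. No paired analysis was possible because no result comes from a test. The casein share of the adult library was 14.1% with at least 300 genes and at most 20% mitochondrial UMIs per barcode, 14.2% with at least 1000 UMIs, 17.4% with UMIs other than caseins and whey as denominator and, in an alternative chosen after seeing the data, 15.6% without likely doublets. The top 1% of barcodes held 67.9% of casein UMIs under the first of these filters and the top 10% held 94.8%. In the secretory gate the casein share was 56.1% without the deepest 10% of barcodes and 56.4% without likely doublets, and CSN1S1 was then 44.0% and 43.6% of the 4. In the non-epithelial gates the casein share was 1.24% with 1 more marker needed, 1.66% without the deepest 10%, 1.29% under the gene and mitochondrial filter and 1.31% without likely doublets, the median casein count was 45 and the CSN1S1 share 45.1% without the deepest 10%, and the share was 2.17% and 1.44% of UMIs when thinned to 500 and 2000. CSN3 in luminal barcodes of at least 8000 UMIs, whose alternatives were all chosen after seeing the data, was 35.6% of the 4 with 1 more marker needed, 36.9% without the deepest 10%, 39.1% without likely doublets and 44.4% with a limit of 5% casein in place of no BTN1A1. With milk protein UMIs left out of the denominator, chosen after seeing the data, 8 log2 ratios of the secretory over the T cell gate turned from negative to positive. Medians did so over larger sets of measured genes than before: all genes (0.20), casein regulators (3.67) and processing genes (0.15). Single genes that did so were GATA3 (0.065), SEC61B (0.80), SPCS2 (0.70), HSPA5 (0.23) and SSR1 (0.15). These 8 values are the only reversals among the 130 alternative values computed. On that scale 4 in place of 2 regulators and 3 in place of 1 processing genes were at least 4-fold higher. The share of all measured genes that were at least 4-fold higher moved from 5.02% to 19.1%. The added genes PRLR, NFIB, ATP2C2 and ORAI1 passed the limits only through their secretory level, so nothing is read from the higher counts. Of the 10 genes most like the caseins, 7 stayed with a pseudocount of 1 CPM and 8 with 100 CPM.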
